A study of Mus musculus with 6 samples.

Results

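Alternative activation is the state that macrophages take on when interleukin 4 or interleukin 13 signals through the transcription factor STAT6, and it is marked in mice by the chitinase-like protein gene Chil3, the resistin-like gene Retnla, the arginase gene Arg1 and the mannose receptor gene Mrc1. These 4 genes were followed here together with Cd209f, a C-type lectin gene of the CD209 family, Plaur, the receptor of urokinase, and Trem1, a receptor that amplifies inflammatory signals on neutrophils and monocytes. The 7 genes, of 20866 that the arrays name, were taken by symbol, each from its only named probe. They had been chosen by measured genotype differences of these arrays: 6 of them, all but Mrc1, were among the genes most above the control in the CD45-EpCAM+ pair. Their values in that pair are therefore a description. Whether values of the other pairs also entered the choice is not recorded, so no value below counts as independent support.

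The mice lacked both TNFalpha and RelA, the p65 subunit of NF-kB (double knockout), or TNFalpha alone (TNF knockout). TNFalpha was thus missing in both groups, the strain was C57BL/6 and the age 1.5 to 2 weeks. From each genotype 3 sorted thymic populations were profiled. The epithelial sort was gated as CD45-EpCAM+. The CD45+ stromal sort, gated as CD45+EpCAM-, came like it from 10 pooled thymi. The thymocyte sort, gated as CD4+CD25hi, where regulatory T cells are found, came from 5 pooled mice. These short names stand for the gates and not for purity. With 1 array for each of the 6 groups, a genotype difference within a population has no replicate check and no test, and precision is limited by this number of arrays. Sex is not given.

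In the neonatal thymus, macrophages take up the thymocytes that die during selection. Arginase 1 splits arginine and so competes with nitric oxide synthase, the product of Nos2, for the same substrate, while Chil3 and Retnla encode secreted proteins that are widely read as marks of STAT6 signalling. None of these genes is specific to one cell type: Chil3 is also made by neutrophils and their precursors, and Plaur and Trem1 are shared by neutrophils, monocytes and macrophages.

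The promoters of 3 members are shown, as RefSeq gives them in build GRCm38.p6: Retnla and Chil3, which were higher in the double knockout in both stromal fractions, and Cd209f, which was not. Each window runs from 250 bases before to 50 after a start of the gene. For Cd209f, and for Plaur and Trem1 described below, that start lies inside the outer bounds of the gene. Capitals mark matches on either strand to the STAT6 letters (TTC and GAA with any 4 bases between), to the C/EBP letters TTGCNNAA and to the kB letters (GGG and CC with any 5 bases between). The windows are chr16:48842359-48842658 on the plus strand for Retnla, chr3:106167515-106167814 on the minus strand for Chil3 and chr8:4105715-4106014 on the minus strand for Cd209f.
Retnla: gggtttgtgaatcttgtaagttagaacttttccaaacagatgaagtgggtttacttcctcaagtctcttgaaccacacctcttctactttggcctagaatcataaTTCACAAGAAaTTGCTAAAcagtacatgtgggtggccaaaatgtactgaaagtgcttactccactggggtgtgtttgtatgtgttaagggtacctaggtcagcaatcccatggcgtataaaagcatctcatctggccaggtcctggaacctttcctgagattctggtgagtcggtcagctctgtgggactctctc
Chil3: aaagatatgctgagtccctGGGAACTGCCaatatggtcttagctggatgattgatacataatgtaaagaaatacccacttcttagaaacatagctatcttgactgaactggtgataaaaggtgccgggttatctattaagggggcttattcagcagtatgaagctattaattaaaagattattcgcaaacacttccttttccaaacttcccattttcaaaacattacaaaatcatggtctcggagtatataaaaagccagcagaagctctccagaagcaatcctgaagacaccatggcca
Cd209f: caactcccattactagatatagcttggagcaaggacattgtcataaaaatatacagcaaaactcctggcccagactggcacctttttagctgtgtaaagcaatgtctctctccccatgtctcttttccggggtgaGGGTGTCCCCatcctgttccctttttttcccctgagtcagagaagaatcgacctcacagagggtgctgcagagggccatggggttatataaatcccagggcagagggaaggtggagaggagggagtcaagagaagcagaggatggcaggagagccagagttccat

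The Retnla window held a STAT6 match that begins at -145 from the start and a C/EBP match that begins at -134. Binding of both factors to the mouse Retnla promoter is known as background. Of 27025 promoters of the same length, 6.99% held the STAT6 letters and 10.8% the C/EBP letters. The Chil3 and Cd209f windows each held 1 kB match, beginning at -231 and -115, and neither held the STAT6 or C/EBP letters. Since 50.4% of the promoters held the loose kB letters, such a match is common. Of the other members, Mrc1 had 1 kB match, Plaur had 3, of which 2 overlap, beside 1 C/EBP match, and Trem1 had none of the 3 motifs. Arg1 is named only.

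The values are levels, that is log2 of the background-corrected spot signal minus the 75th percentile of its array, and a difference is the double knockout's level minus the TNF knockout's. The 75th percentile of the signal was between 108 and 675, lowest on the double-knockout epithelial array, where 47.2% of probes were well above background by the scanner software's own test, against 55.1% to 66.2% on the other 5 arrays. The log2 difference of Rela, the deleted gene, was -2.02 in epithelial cells, -0.74 in CD45+ stromal cells and -1.86 in the thymocyte sort. For members well above background, the scanner software put the error of a spot at 10.0% to 20.0% of its signal, which covers the measurement and not the mice or the sort. Where 1 array of a pair was not well above background, its level was set no lower than the dimmest probe that was, and the fold is given as "at least". In sorted bulk RNA, fewer cells of a type and less RNA per cell cannot be told apart.

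In both stromal fractions Chil3, Retnla and Arg1 were at least 2-fold higher in the double knockout, and Chil3 was so in the thymocyte sort too. Of the 7 genes, 6 were at least 2-fold higher in epithelial cells, against 5.10% of 13208 genes with a difference there; since that pair chose them, nothing is read from this count. In CD45+ stromal cells 4 of the 7 were at least 2-fold higher, against 1.82% of 14586 genes. Values of this pair may also have entered the choice, so this count is a description too. Chil3 was the only one in the thymocyte sort, against 1.68% of 12933 genes, and 3 members were not well above background on either array. No member was 2-fold lower in any pair, where 9.30%, 2.08% and 1.28% of all genes were, in the same order of populations. In epithelial cells the choice of 6 members for high values fixed this. With so few genes it is near the shares in the other populations, so nothing is read from it.

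**Figure D1:**
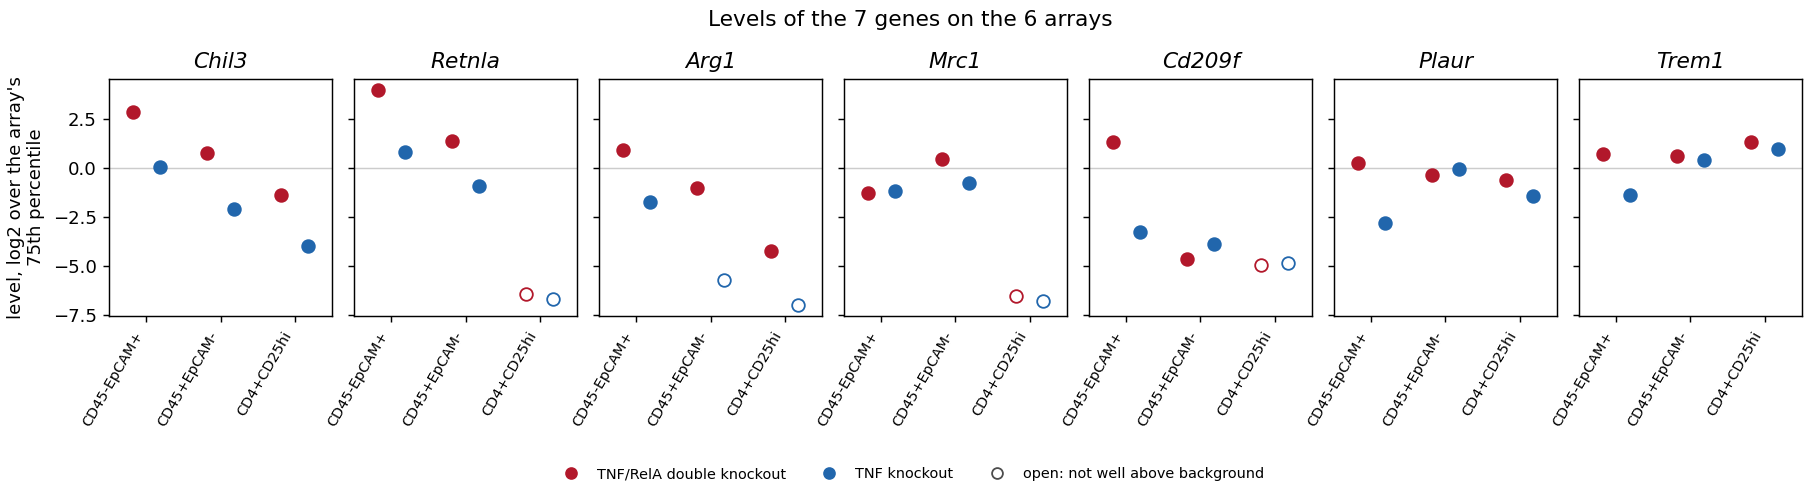
Level of each of the 7 genes on each of the 6 arrays, in log2 units over the array's 75th percentile, with the double knockout left of the TNF knockout and 1 point per array. Open points were not well above background; the Chil3 points of the double knockout lie above those of the TNF knockout in all 3 populations.

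Chil3 encodes a chitinase-like lectin without chitinase activity. Its level was 2.85 in double-knockout and 0.02 in TNF-knockout epithelial cells, a difference of 2.83. It was 0.76 in double-knockout and -2.12 in TNF-knockout CD45+ stromal cells, a difference of 2.89 or 7.41-fold. It was -1.40 in double-knockout and -4.01 in TNF-knockout thymocytes, a difference of 2.62 or 6.14-fold. The probe was well above background on all 6 arrays, and in each population the double-knockout array was the higher. By size of difference Chil3 stood 7th of 14586 genes in CD45+ stromal cells and 3rd of 12933 in the thymocyte sort. With normexp background correction the last difference was 1.13.

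Retnla encodes a small secreted protein of the resistin-like family. Its level was 3.98 in double-knockout and 0.82 in TNF-knockout epithelial cells, a difference of 3.16. It was 1.35 in double-knockout and -0.92 in TNF-knockout CD45+ stromal cells, a difference of 2.26 or 4.80-fold, which was rank 23 of 14586. Neither thymocyte array was well above background for it. The level in double-knockout epithelial cells exceeded that of 96.4% of the genes on its array, and the level in TNF-knockout epithelial cells that of 75.3%.

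Arg1, the cytosolic arginase, was well above background in double-knockout but not TNF-knockout arrays of 2 populations. Its level was 0.89 in double-knockout and -1.75 in TNF-knockout epithelial cells, a difference of 2.64. In CD45+ stromal cells it was -1.01 in the double knockout and not well above background in the TNF knockout, where the measured level was -5.74. The double knockout was at least 21.1-fold higher there, which was the largest difference or bound of the 14586 genes. With normexp the log2 difference was 2.23. Among thymocytes it was well above background in the double knockout alone, at -4.24, where it was at least 1.52-fold higher.

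Mrc1, the mannose receptor of macrophages, differed 2-fold in 1 population. In CD45+ stromal cells its level was 0.43 in the double knockout and -0.79 in the TNF knockout, a difference of 1.22 or 2.32-fold, the smallest of the 4 that passed 2-fold there. In epithelial cells it was -1.29 in the double knockout and -1.17 in the TNF knockout, a difference of -0.12, whose sign turned with normexp (0.26). It was not well above background on either thymocyte array.

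Cd209f had the largest difference of 13208 genes in epithelial cells and lay on the other side of 0 in CD45+ stromal cells. Its level was 1.30 in double-knockout and -3.30 in TNF-knockout epithelial cells, a difference of 4.60 or 24.3-fold. It was -4.64 in double-knockout and -3.92 in TNF-knockout CD45+ stromal cells, a difference of -0.73. The double-knockout epithelial array thus stood alone among the 6, and neither thymocyte array was well above background.

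Plaur and Trem1 were measured on all 6 arrays and differed 2-fold between genotypes in epithelial cells only, where the TNF-knockout array held the lowest level of each gene. Plaur was at 0.24 in double-knockout and -2.80 in TNF-knockout epithelial cells, at -0.39 and -0.07 in double-knockout and TNF-knockout CD45+ stromal cells, and at -0.64 and -1.45 in double-knockout and TNF-knockout thymocytes. Its differences were 3.05, -0.32 and 0.82, and the last, 1.76-fold, was the member value nearest below 2-fold. Trem1 was at 0.72 in double-knockout and -1.38 in TNF-knockout epithelial cells, at 0.60 and 0.40 in double-knockout and TNF-knockout CD45+ stromal cells, and at 1.30 and 0.98 in double-knockout and TNF-knockout thymocytes. Its differences were 2.10, 0.19 and 0.32, so that a gene known from myeloid cells had its highest levels in the thymocyte sort.

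**Figure D2:**
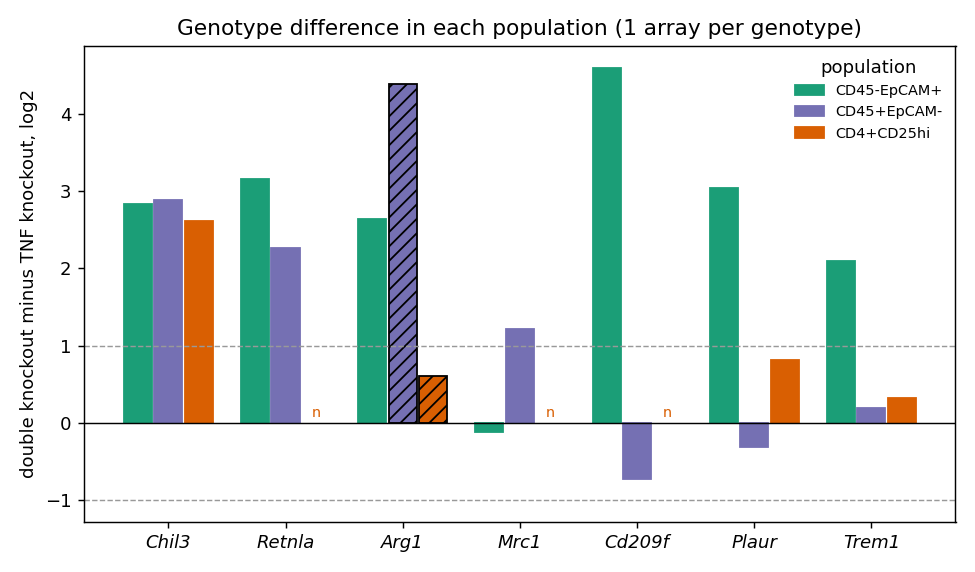
Log2 difference, double knockout minus TNF knockout, of each gene in each population, 1 array per genotype, with 2-fold marked by dashed lines. Hatched bars are lower bounds, where the TNF-knockout array was not well above background, and n marks a gene not well above background on either array; only Chil3 passes 2-fold in all 3 populations.

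A linear model (limma) asked whether the genotypes differed in common over CD45+ stromal cells and the thymocyte sort, leaving out the epithelial pair from which members had been picked. It called 0 of 13885 genes at an adjusted p of 0.05 (0%), with 1244 at an unadjusted p under 0.05, and called 0 also in each of 8 other settings. The log2 effects of the 3 members well above background on all 4 arrays were 2.75 for Chil3 (SE 0.12, limma adjusted p = 0.534), 0.25 for Plaur (limma adjusted p = 0.775) and 0.26 for Trem1 (limma adjusted p = 0.538). For the other 4 members the fitted effect rests in part on levels not well above background and is no measured size. That of Arg1, dim on both TNF-knockout arrays, was 3.76, or 1.29 with normexp, and its bounds in each pair are those given above. None of these 4 passed. The fit has 1 residual degree of freedom, and its p-values measure how unlike the difference was in the 2 populations rather than any spread among replicate pools.

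Between populations, CD45+ stromal cells and the thymocyte sort were compared with genotype as a covariate, again without the pair that chose the members. Over all genes 1453 of 13885 (10.5%) were at least 2-fold higher in CD45+ stromal cells and 932 (6.71%) lower at a limma adjusted p under 0.05, a split of 803 to 810 with normexp. Chil3 was higher in CD45+ stromal cells, with mean levels of -0.68 there and -2.70 in the thymocyte sort, a difference of 2.02 (SE 0.12, limma adjusted p = 0.0148). Retnla, Mrc1 and Cd209f entered the fit through the CD45+ stromal arrays alone, where they are higher, so that their values are a description with no test. Retnla, with mean levels of 0.22 in CD45+ stromal cells and -6.58 in the thymocyte sort, was at least 29.7-fold higher. Mrc1, with means of -0.18 and -6.67 in the same order, was at least 22.6-fold higher, and Cd209f at least 1.32-fold higher, a direction that turned with normexp (-0.50). Arg1 was dim on the TNF-knockout array of both populations, so that its fitted difference of 2.26 is no measured size. It did not pass (limma adjusted p = 0.0837) and ranged over the settings from 0.43 with normexp to 2.31 with quantile normalization, the setting in which it passed (limma adjusted p = 0.0435). Trem1 was lower by less than 2-fold, at -0.64 (SE 0.10, limma adjusted p = 0.0421), which did not pass without a filter on dim probes or with all 6 arrays. Plaur, at 0.81 (SE 0.35, limma adjusted p = 0.181), did not pass. The standard errors and p-values here also rest on 1 residual degree of freedom. They reflect how unlike the genotype difference was in both populations and measure no spread among replicate pools. Slide and population cannot be told apart, since every population had a slide to itself.

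**Figure D3:**
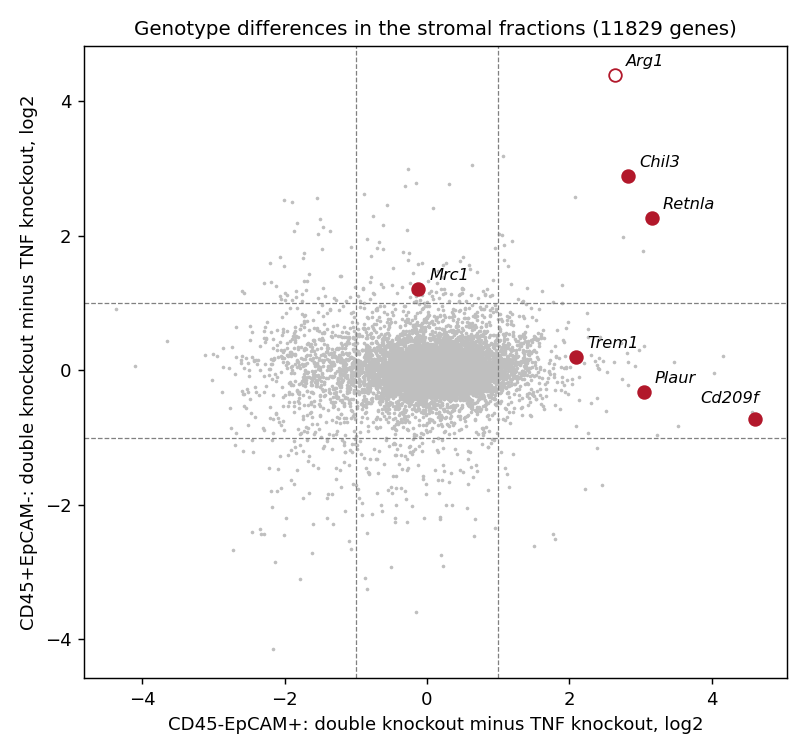
Log2 difference, double knockout minus TNF knockout, in CD45-EpCAM+ cells (horizontal) and in CD45+EpCAM- cells (vertical) for 11829 genes with a difference in both, with the 7 genes named and 2-fold marked by dashed lines. Arg1 (open) is a lower bound on the vertical axis; Arg1, Chil3 and Retnla lie above 2-fold on both axes, Cd209f, Plaur and Trem1 on the horizontal axis only, and Mrc1 on the vertical axis only.

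Among the 11829 genes with a difference in both stromal fractions, 21 were at least 2-fold higher in both. They made up 3.12% of those higher in epithelial cells and 7.92% of those higher in CD45+ stromal cells, and Chil3, Retnla and Arg1 were among them. Over all 3 pairs, 4 of 10963 genes were at least 2-fold higher. Besides Chil3 these were Abca1, a cholesterol exporter, Fcgr4, an activating Fc receptor of myeloid cells, and Txnip, the thioredoxin-interacting protein, all 3 named after their values were seen. Fcgr4 differed by 2.75 in epithelial cells, 1.99 in CD45+ stromal cells and 1.35 in the thymocyte sort.

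Over the 6 arrays the levels of Chil3, Retnla and Arg1 ran together, with Pearson's r between 0.86 and 0.94 for their 3 pairs. Plaur and Trem1 ran with each other (r = 0.72) and not with these, with r from -0.41 to 0.29. Mrc1 ran most closely with Retnla (r = 0.82) and Cd209f with Chil3 (r = 0.76). These are descriptions over 6 arrays that share slides by population, with dim levels set to the array's floor. The genes most like the mean standardized level of the 7, by r over the 6 arrays among 17197 genes, were Tmem26 (0.998), Hacd4 (0.995), D330050I16Rik (0.985), Dipk1b (0.985) and Zfp202 (0.984). Tmem26 and Hacd4 were well above background on the CD45+ stromal arrays alone, so that elsewhere their likeness rests on the floors. Zfp202 was not well above background on the double-knockout epithelial array, where its measured level of -4.78 was its lowest. The floor of that array, -2.82, took its place and became its highest value, so that its likeness rests on a floor as well. Of the members Chil3 came nearest to the mean, at rank 108 (r = 0.909), and Trem1 stood at rank 10307 (r = 0.07).

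Beside Chil3, Retnla and Arg1, no other chitinase-like, resistin-like or arginine metabolism gene was 2-fold higher in epithelial cells. Of all genes there 5.10% were higher and 9.30% lower. In lists this short the absence of others is near the first share, and nothing is read from it. Among chitinase-like genes Chil1 was 6.43-fold lower in the double knockout and Chil4 2.19-fold lower, and Chit1 was at least 2.36-fold lower, where Chil3 was higher. Chil4 is so similar to Chil3 in sequence that their probes may share signal. Of the resistin-like genes Retn differed by -0.89 and Retnlg by 0.93 in these cells, and Retnlg was at least 2.53-fold higher in CD45+ stromal cells. Arg2, the mitochondrial arginase, was 2.51-fold lower in epithelial cells and not well above background elsewhere. Nos2 was 3.62-fold lower in double-knockout epithelial cells and differed by 0.09 in CD45+ stromal cells.

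The other 3 CD209 genes measured in CD45+ stromal cells were at least 2-fold lower in the double knockout, where 2.08% of all genes were. Cd209a was 3.79-fold lower, Cd209d 3.36-fold lower and Cd209e at least 3.64-fold lower, beside the -0.73 of Cd209f. None of the other 6 CD209 genes was well above background on the double-knockout epithelial array. Its lowest level well above background was -2.82, against -4.78 on the TNF-knockout epithelial array, so weak signals of these genes could be missed there. Plau, which encodes urokinase, the ligand of Plaur, was 2.07-fold higher in double-knockout epithelial cells. Trem2 differed by -0.97 in epithelial cells and was 2.14-fold higher in CD45+ stromal cells, and Tyrobp, the adaptor that carries Trem1 and Trem2 signals, differed by 0.86 and -1.14.

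Genes of a wider alternative activation list, chosen with earlier results of these data known, went both ways in epithelial cells. The name of the state is therefore used only as a label for the members. Of 26 on the array 20 had a difference, with a median of -0.47 beside 0.03 over all genes. Of these 3 were at least 2-fold higher and 7 lower, against 5.10% and 9.30% of all genes. In CD45+ stromal cells 6 of 24 were higher and 2 lower, against 1.82% and 2.08%, with a median of 0.24 beside -0.01. In the thymocyte sort none of 11 differed 2-fold, against 1.68% higher and 1.28% lower, with a median of 0.45 beside -0.02. Ccl24, an eosinophil-attracting chemokine, was higher in the double knockout in both fractions, 4.24-fold in epithelial and 5.97-fold in CD45+ stromal cells. Clec10a, a galactose-type lectin of macrophages and dendritic cells, was 3.49-fold higher in epithelial and 5.70-fold lower in CD45+ stromal cells. Tgm2, a transglutaminase, was 3.54-fold higher in CD45+ stromal cells, and Irf4, a transcription factor of this programme, was 4.06-fold lower in epithelial cells.

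No gene of the signals that induce this state was 2-fold higher in the double knockout. Over all genes 5.10% were higher in epithelial cells, 1.82% in CD45+ stromal cells and 1.68% in the thymocyte sort. Those lower were 9.30%, 2.08% and 1.28%, in the same order. In a list this short, counts of 0 higher are near these shares, and nothing is read from them. Of 20 signal and receptor genes, 19 had a difference in epithelial cells, with 0 at least 2-fold higher and 3 lower, and 17 in CD45+ stromal cells, with 0 higher and 1 lower. Among thymocytes 0 of 13 differed 2-fold. Il13 was 4.36-fold lower in double-knockout epithelial cells and Il4 2.37-fold lower in double-knockout CD45+ stromal cells. Stat6 differed by -0.19 in epithelial cells, 0.08 in CD45+ stromal cells and 0.17 in thymocytes, and Il4ra by -0.53, -0.09 and -0.34. Of genes of classical activation, 10 of 12 were at least 2-fold lower in epithelial cells, against 9.30% of all genes, with a median of -1.31. In CD45+ stromal cells 3 of 11 were lower and 1 higher, with a median of 0.07. The cause was not tested. Among thymocytes 1 of 10 was higher, with a median of 0.45. Hypoxia and glycolysis genes, a group that can accompany Arg1, held 0 differences of 2-fold among 9 in epithelial cells. They held 1 lower among 9 in CD45+ stromal cells and 2 higher among 8 in the thymocyte sort, Vegfa (1.79) and Bnip3 (1.15).

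**Figure D4:**
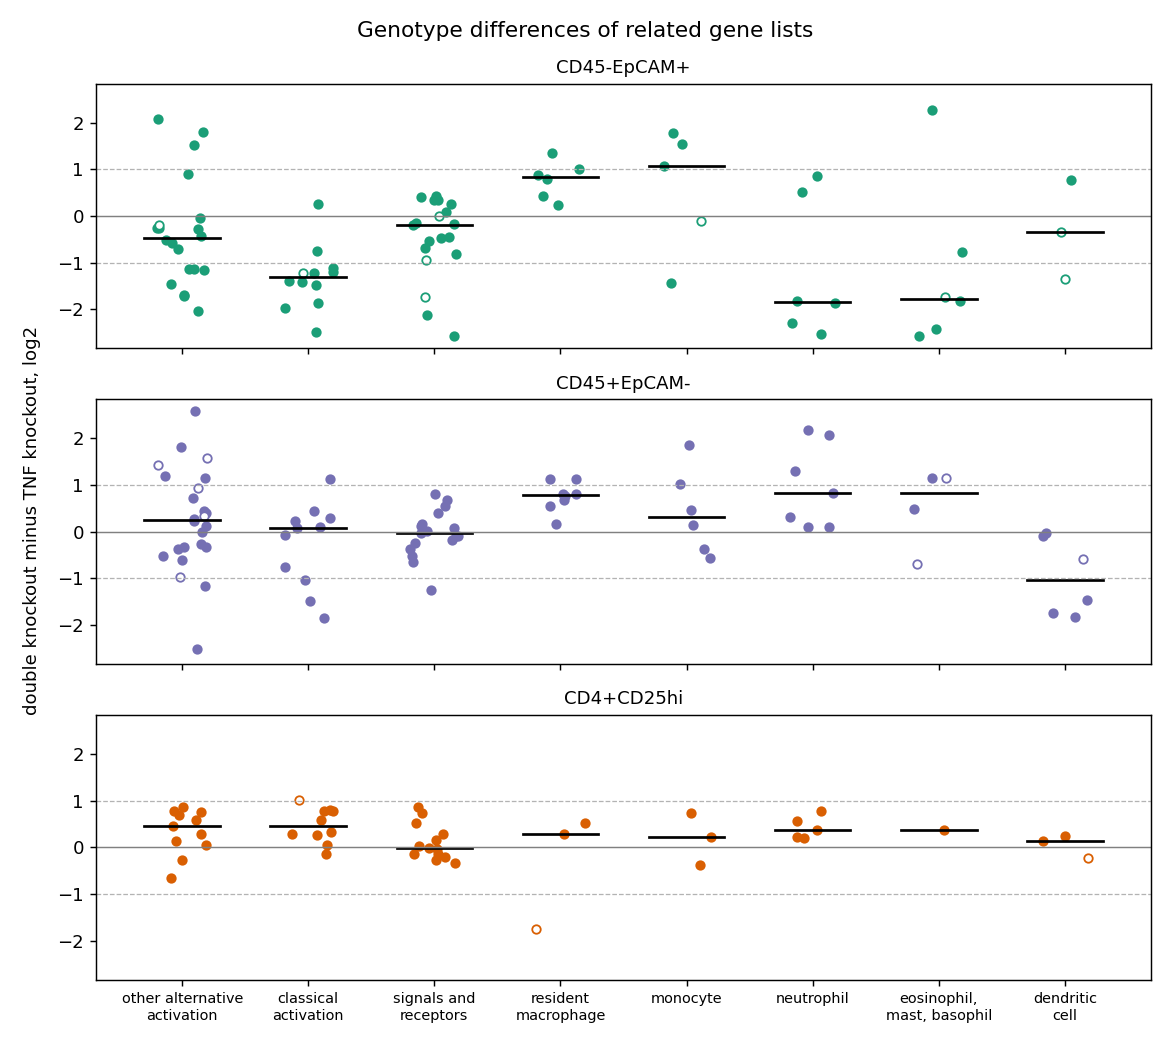
Log2 difference, double knockout minus TNF knockout, of the genes of 8 related lists (1 point per gene, open where it is a bound, bar at the median) in each of the 3 populations. In CD45-EpCAM+ cells resident macrophage genes lie above 0 and most neutrophil genes below, whereas in CD45+EpCAM- cells both groups lie above 0.

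Markers of myeloid cells also differed between the genotypes, and their part in the members' differences was not tested. Of 9 resident macrophage markers on the array, 6 had a difference in epithelial cells, from 0.23 to 1.35 (median 0.83, 1 at least 2-fold higher), and 8 in CD45+ stromal cells, from 0.17 to 1.13 (median 0.79, 2 higher). The share of all genes at least 2-fold higher was 5.10% in epithelial and 1.82% in CD45+ stromal cells. C1qa had levels of 0.29 in double-knockout and -0.71 in TNF-knockout epithelial cells and 1.49 in double-knockout and 0.72 in TNF-knockout CD45+ stromal cells. Both differences were smaller than those of Chil3, Retnla and Arg1. Since these members were picked for large differences in epithelial cells, and the markers were not, nothing is read from the comparison there. Values of CD45+ stromal cells may also have entered the choice, so the comparison in those cells is a description too. Cd163 was not well above background on any array.

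Neutrophil markers mostly lay on opposite sides of 0 in the stromal fractions. The counts below stand beside unlike shares of all genes at least 2-fold higher or lower. These were 5.10% higher and 9.30% lower in epithelial cells, 1.82% and 2.08% in CD45+ stromal cells, and 1.68% and 1.28% in the thymocyte sort. In epithelial cells 4 of 6 were at least 2-fold lower in the double knockout (median -1.84), with S100a8 at -1.82 and S100a9 at -1.86. In CD45+ stromal cells 3 of 7 were at least 2-fold higher (median 0.84), with S100a8 at 2.19 and S100a9 at 2.07. Monocyte markers were 3 higher and 1 lower of 5 in epithelial cells and 2 higher of 6 in CD45+ stromal cells. Fcgr1 (1.77 and 1.01) and Fn1 (1.08 and 1.86) were higher in both, and Itgam (1.54) in epithelial cells only. Lyz2 (-1.43 and -0.37) and Cx3cr1 (-0.11, a bound, and -0.57) lay below 0 in both. Of the eosinophil, mast cell and basophil markers 4 of 6 were lower and 1 higher in epithelial cells, and 2 of 4 higher in CD45+ stromal cells, whereas 3 of 6 dendritic cell markers were lower in CD45+ stromal cells. Probes of some myeloid markers were well above background in the thymocyte sort too. Of 7 neutrophil markers 5 had a difference there, all above 0 and none 2-fold, from 0.20 for Camp to 0.77 for Cxcr2 (median 0.38), while S100a8 and S100a9 were not well above background on either array. Of 9 resident macrophage markers 3 had a difference there, C1qb at 0.53, Csf1r at 0.28 and Vcam1, which was at least 3.36-fold lower in the double knockout, and the other 6, C1qa among them, were not well above background on either array. The probes of Itgam, Csf3r and Siglech were bright on all 6 arrays, with lowest levels of 3.49, 5.35 and 5.35, and so do not separate these populations. Elane lay between -1.29 and -0.40 on all 6 arrays, highest in double-knockout thymocytes, and does not separate them either. Csf3r and Elane are among the 5 neutrophil markers with a difference in the thymocyte sort, so these do not establish myeloid cells there.

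Foxp3 and Foxn1 were highest in the sorts where they belong, and Cd3e was well above background in all. Foxp3 was at 4.79 and 4.47 in double-knockout and TNF-knockout thymocytes and not well above background in epithelial cells. Foxn1, a transcription factor that thymic epithelium needs, was at 3.39 in double-knockout and 3.23 in TNF-knockout epithelial cells and not well above background elsewhere. The lowest level of Cd3e, 3.89, was that of TNF-knockout epithelial cells, and its difference in epithelial cells was 0.98. Among mesenchyme and endothelium markers 1 of 4 was higher in epithelial cells, and among parathyroid markers 2 of 3, Pth (3.74) and Chga (2.25), against 5.10% of all genes. B cell markers had no difference in epithelial cells, where 3 of 4 gave no fold, and in CD45+ stromal cells 1 of 4 was lower, against 2.08% of all genes.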

How the data were processed

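The authors deposited 1 file of spot intensity per array, written by Feature Extraction 10.5.1.1 for design 026655, per the file headers, whereas version 9.5 stands in the submitters' processing notes. The RNA was amplified with a low-input kit and labelled with Cy3, per the labels' protocols. The deposited value table, whose scale no header gives, matched log2 of that intensity centred on the 75th percentile, with an offset of at most 0.0054, which settles its scale, centring and direction. Its column medians were -3.61 and -3.72 (CD4+CD25hi), -2.72 and -2.84 (CD45-EpCAM+) and -3.58 and -3.63 (CD45+EpCAM-), double knockout first in each.

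Control spots and outlier spots were left out, spots of a probe were averaged in log2, and 39419 of 39429 probes were used. Accessions gave 27472 probes (69.7%) a single symbol in a GRCm38.p6 gene table, 35 several and 11912 none, and the brightest probe stood for a gene. The array design names build mm9, so gene coordinates are given only for RefSeq promoters. Fits used limma 3.58.1 in R 4.3.3 on genes well above background on at least 2 of 4 arrays, with a prior of 1.80 degrees of freedom and Benjamini-Hochberg adjustment, and the code was tested on simulated data. Normexp (offset 50) used median spot signals. The rule for named genes took the members, every gene of lists with at most 8 genes, the 4 largest differences of longer lists, markers, and the 5 genes most like the members' mean. Members and lists were chosen with earlier results of these data known. Other alternatives were centring on the median of detected probes, quantile normalization, the mean over probes, the value table, other filters on dim probes and a fit to all 6 arrays.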

Additional observations from a re-analysis of the deposited data

Results flagged for a closer look

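For 3 of the 7 genes the genotype difference had opposite signs in 2 populations, with 1 array per genotype in each, so that the difference between populations was not tested. The log2 difference of Cd209f was 4.60 in epithelial cells and -0.73 in CD45+ stromal cells, and the second minus the first is -5.33. Plaur differed by 3.05 in epithelial cells and 0.82 in the thymocyte sort, against -0.32 in CD45+ stromal cells. The CD45+ stromal value of Plaur minus these others is -3.36 and -1.13. Mrc1 differed by -0.12 in epithelial cells and 1.22 in CD45+ stromal cells, and the second minus the first is 1.34, but its sign in epithelial cells turned with normexp.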

How the results depend on the processing

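The number of members at least 2-fold higher in the double knockout was 6 in epithelial cells and 1 in the thymocyte sort in every setting, and 4 in CD45+ stromal cells, or 3 where both arrays had to be well above background, which leaves out Arg1. Counts over all genes were less stable. With normexp, 571 genes were 2-fold lower in epithelial cells, 66 higher and 108 lower in CD45+ stromal cells and 33 higher and 18 lower in the thymocyte sort. Where both arrays had to be well above background, 751 were lower in epithelial cells, 174 higher in CD45+ stromal cells, and 125 higher and 97 lower in the thymocyte sort; fewer genes enter here. Between CD45+ stromal cells and the thymocyte sort 1163 genes were called without a filter on dim probes, in place of 2385, and the split of higher and lower genes was 933 to 907 with genes well above background on all 4 arrays. With normexp, which shrinks dim signals, the epithelial differences were 2.17 for Chil3, 2.55 for Retnla, 1.88 for Arg1, 3.04 for Cd209f, 2.00 for Plaur and 1.39 for Trem1. Signs turned for Mrc1 in epithelial cells with normexp (0.26), for Cd209f between populations with normexp (-0.50) and for the common genotype effect of Cd209f with all 6 arrays (1.25), which adds the pair in which it was highest. The cause of the other changes was not tested. No paired analysis was possible because the labels give no replicate numbers and each group holds 1 array; the common genotype fit already has population, and so slide, as a term. Leaving out an array leaves the 4-array fit no residual degrees of freedom. Signal over background limits Arg1, Retnla, Mrc1 and Cd209f in the thymocyte sort.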
